A study of Mus musculus with 7 samples.

Results

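The 9 genes described here are master transcription factors and signature cytokines of helper T cell lineages, read in regulatory T cells (Tregs) from mouse skin and from skin-draining lymph nodes (SDLN). Each was taken as the row of the count table that carries its exact symbol, and all 9 were found among 24084 gene symbols. They are the type 1 genes Tbx21, Eomes and Ifng, the type 2 cytokines Il4, Il5 and Il13, and the type 17 cytokines Il17a, Il17f and Il22. The samples were 4 libraries of Tregs from telogen skin, meaning skin with hair follicles at rest, and 3 libraries of Tregs from SDLN. All mice were 6 weeks old and carried the Foxp3-DTR allele, in which the Treg factor Foxp3 is linked to the diphtheria toxin receptor and a green fluorescent protein. The labels name no treatment and do not state the sort gates, the sex of the mice or how many mice made up a library. The p-values below therefore measure the spread between libraries, which may be technical. The series was set up to profile Treg transcription in both sites.

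Helper T cells differentiate into lineages that each run on a master transcription factor and secrete their own cytokines. T-bet, encoded by Tbx21, and its relative eomesodermin drive the type 1 programme and interferon gamma, and GATA3 drives interleukins 4, 5 and 13, while interleukins 17A, 17F and 22 mark the type 17 lineage. Tregs can take up parts of these programmes while keeping Foxp3, and Tregs of barrier tissues such as skin are known for GATA3.

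The cytokine genes lie in clusters. In the GENCODE annotation of mm10, Il4 (chromosome 11, 53602982 to 53618669) and Il13 (chromosome 11, 53631324 to 53634702) are 12.7 kb apart, and Il5 (chromosome 11, 53720794 to 53725106) follows 86.1 kb beyond Il13, past the DNA repair gene Rad50. Il17a (chromosome 1, 20730905 to 20734496) and Il17f (chromosome 1, 20777146 to 20790617) are 42.6 kb apart. Il22 (chromosome 10, 118204942 to 118210047) and Ifng (chromosome 10, 118441046 to 118445892) lie 231 kb apart. Tbx21 is at chromosome 11, 97098071 to 97115331, and Eomes at chromosome 9, 118478212 to 118486132. All 9 are protein-coding. The annotation places an antisense gene over Eomes and another over Il5, and a further transcript on the strand of Ifng. Whether the counting used strand is not stated, so reads from overlapping genes cannot be separated.

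Upstream sequences are shown for the 5 genes that reached at least 50 counts in a skin library, since these carry the values described below. Each is the 250 bases before the gene's start in RefSeq (GRCm38.p6), read 5′ to 3′ on the gene's strand, with motif matches in capitals.
Tbx21, chr11:97115332-97115581, minus strand: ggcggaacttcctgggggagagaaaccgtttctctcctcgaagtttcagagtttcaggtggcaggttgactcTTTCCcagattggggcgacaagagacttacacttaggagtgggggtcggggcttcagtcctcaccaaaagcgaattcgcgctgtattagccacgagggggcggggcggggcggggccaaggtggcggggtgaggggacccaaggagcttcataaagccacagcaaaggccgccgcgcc
Ifng, chr10:118440796-118441045, plus strand: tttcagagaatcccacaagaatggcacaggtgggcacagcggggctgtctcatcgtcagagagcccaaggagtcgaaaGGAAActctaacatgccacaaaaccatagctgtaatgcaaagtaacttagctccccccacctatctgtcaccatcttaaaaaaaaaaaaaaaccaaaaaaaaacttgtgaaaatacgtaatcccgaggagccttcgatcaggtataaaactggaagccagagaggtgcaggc
Il4, chr11:53618666-53618915, minus strand: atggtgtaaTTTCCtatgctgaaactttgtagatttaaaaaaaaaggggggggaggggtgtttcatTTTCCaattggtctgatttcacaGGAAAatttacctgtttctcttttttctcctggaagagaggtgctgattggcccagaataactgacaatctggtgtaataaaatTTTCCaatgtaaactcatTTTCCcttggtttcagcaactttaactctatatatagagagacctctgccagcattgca
Il5, chr11:53720544-53720793, plus strand: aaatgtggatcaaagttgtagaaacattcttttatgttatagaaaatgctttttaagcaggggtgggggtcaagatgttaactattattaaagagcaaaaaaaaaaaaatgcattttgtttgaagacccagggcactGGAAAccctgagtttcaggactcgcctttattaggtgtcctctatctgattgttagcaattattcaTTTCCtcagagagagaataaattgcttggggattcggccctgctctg
Il17a, chr1:20730655-20730904, plus strand: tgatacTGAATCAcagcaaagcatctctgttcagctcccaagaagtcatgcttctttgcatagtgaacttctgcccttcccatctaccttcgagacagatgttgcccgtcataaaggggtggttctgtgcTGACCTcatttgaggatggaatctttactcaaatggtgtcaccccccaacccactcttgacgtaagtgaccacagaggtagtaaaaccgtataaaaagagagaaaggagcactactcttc
The motifs searched on both strands were GGTGTGA for T-box factors, GATAA for GATA factors, AGGTCA for nuclear receptors, TGANTCA for AP-1 and GGAAA for NFAT, the factor that T cell receptor signals activate. No matches overlapped. GGAAA or its reverse TTTCC matched 5 times before Il4, 2 times before Il5 and once each before Tbx21 and Ifng, and was present before 55.6% of 32851 RefSeq starts. Before Il17a, TGACCT matched 120 to 115 bases and TGAATCA 244 to 238 bases upstream of the start, and these motifs were present before 14.0% and 6.75% of starts. GGTGTGA, present before 3.33% of starts, and GATAA, present before 22.6%, were in none of the 5 windows.

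Gene counts totalled 11009609 to 13921238 in skin libraries and 13123241 to 14785751 in SDLN libraries, so that 3 counts, the floor used below, stood for 0.214 to 0.276 CPM (counts scaled to library size by TMM, edgeR's CPM) in skin and 0.204 to 0.232 CPM in SDLN. Intervals and floors cover counting error only. Skin libraries had 9690 to 12639 genes with a count, against 13408 to 13845 in SDLN libraries. The Treg markers Foxp3, Il2ra, Ikzf2 and Ctla4 summed to 5875 to 9414 CPM in skin and 3644 to 3826 CPM in SDLN, with all 4 detected in both tissues. These markers did not move together. Ctla4 averaged 3820 CPM in skin and 651 CPM in SDLN, and Ikzf2 2938 and 1320 CPM. Foxp3 averaged 169 CPM in skin and 89.0 CPM in SDLN (edgeR adjusted p = 0.242). Il2ra was lower in skin on average, at 1367 against 1663 CPM (edgeR adjusted p = 0.585). The T cell markers Cd3e, Cd3g and Cd4 summed to 1553 to 3039 CPM in skin and 3652 to 4889 CPM in SDLN. The 4 skin libraries differed widely among themselves, with a median coefficient of variation per gene of 0.7499 in skin and 0.187 in SDLN. Skin 1 was placed by its title and source, although its tissue tag reads lymph node. Some markers of other cell types were high in single skin libraries, mostly skin 3 and skin 4, with values given below. In these bulk libraries more cells expressing a gene and more RNA per cell cannot be told apart.

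The 9 genes fell into 4 patterns of detection. Tbx21 and Ifng had counts in all 4 skin and all 3 SDLN libraries. Il4, Il5 and Il17a had counts almost wholly in 1 skin library each. Eomes and Il17f had counts in all 3 SDLN libraries and in none of 4 skin libraries. Il13 had 1 count in each tissue, and Il22 had none. Between 3 and 4 of the 9 genes had a count in each skin library, against 4 to 6 in each SDLN library, and with at least 3 counts asked for, these ranges were 2 to 4 in skin and 3 to 4 in SDLN.

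**Figure D1:**
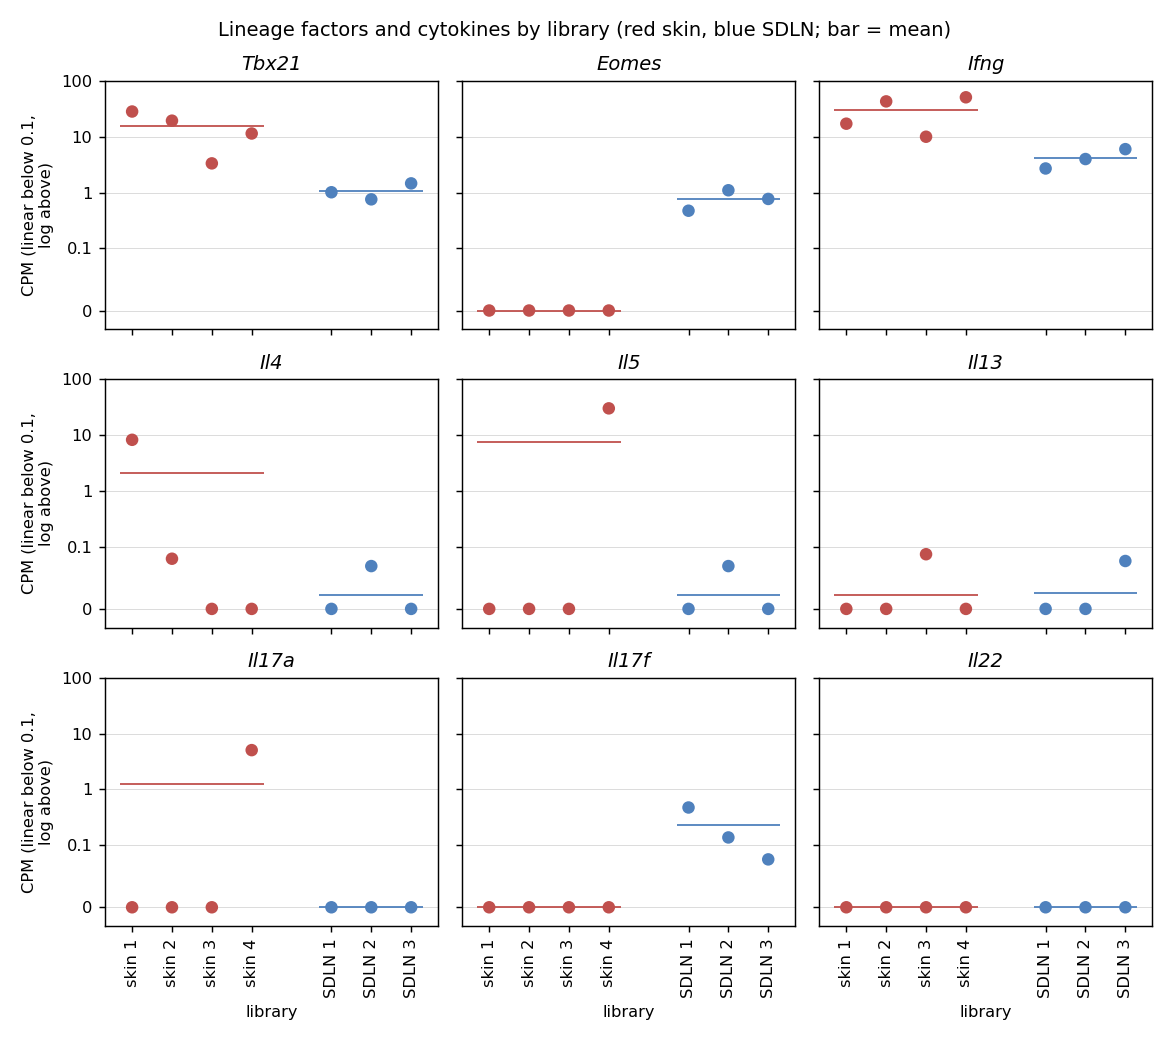
Level of each lineage factor and cytokine gene (CPM, on an axis that is linear below 0.1 and logarithmic above) in the 4 skin libraries (red) and 3 SDLN libraries (blue), with horizontal bars at the mean of each tissue. Tbx21 and Ifng lie above every SDLN library in every skin library, Il4 stands high in skin 1 alone, and Il5 and Il17a stand high in skin 4 alone.

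Tbx21, which encodes the type 1 master factor T-bet, was at 28.4, 19.5, 3.35 and 11.5 CPM in skin 1 to 4, against 1.02, 0.759 and 1.47 CPM in SDLN 1 to 3. Every skin library stood above every SDLN library, and skin 3 was the lowest of the skin libraries. The mean was 15.7 ± 10.8 CPM in skin (SD, n = 4) and 1.08 ± 0.358 CPM in SDLN (SD, n = 3), a 14.5-fold difference. Ifng, the signature type 1 cytokine, was at 17.2, 43.2, 10.05 and 51.1 CPM in skin 1 to 4, against 2.71, 4.004 and 6.02 CPM in SDLN 1 to 3. Here too the tissues did not overlap and skin 3 was lowest, while skin 4 rather than skin 1 was highest. The mean was 30.4 ± 19.8 CPM in skin (SD, n = 4) and 4.25 ± 1.67 CPM in SDLN (SD, n = 3), a 7.16-fold difference.

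Neither difference passed edgeR's quasi-likelihood test with Benjamini-Hochberg adjustment over 11376 genes at a threshold of 0.05. Tbx21 had a log2 fold change of 3.85 (SE 1.28, unadjusted p = 0.0165, adjusted p = 0.137), and Ifng one of 2.84 (SE 0.96, unadjusted p = 0.0179, adjusted p = 0.145). Of the 9 genes, these were the 2 that passed the low-count filter, and 0 of them were called higher or lower by edgeR. Both were higher by the unadjusted p at 0.05, and DESeq2 called 2 higher, whereas limma-voom called 0. Of the 11376 genes, DESeq2 called 923 higher and limma-voom 271. How many of all genes were higher by the unadjusted p was not counted. By edgeR's adjusted p 7.24% of all genes tested were called, 3.28% higher in skin and 3.96% lower. Without overlap of the tissues, every skin library was above every SDLN library for 10.1% of tested genes and for 7.22% of genes with at least 1 count. The call differed between tools and settings, and the cause of this was not tested. With DESeq2 the adjusted p was 0.00129 for Tbx21 and 0.00537 for Ifng, and with limma-voom and a variance weight per tissue it was 0.0351 and 0.0395. Tbx21 also passed without skin 3 (edgeR adjusted p = 0.0482), and over all 18 alternatives its adjusted p was 0.00129 to 0.523 and that of Ifng 0.00537 to 0.599.

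The genes whose pattern over the 7 libraries was closest to that of Tbx21, by the root mean square difference in centred log2 CPM among 11099 genes, were Rxra (0.474), Pcyt1a (0.476) and Edaradd (0.479). Rxra, a retinoid X receptor, averaged 199 CPM in skin and 19.1 CPM in SDLN. Edaradd, an adaptor of the ectodysplasin receptor, averaged 149.8 CPM in skin and 8.60 CPM in SDLN. Closest to Ifng were Pqlc1 (0.317), Rab26os (0.334) and Mir24-2 (0.351). Pqlc1 averaged 121 CPM in skin and 21.4 CPM in SDLN.

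Eomes, the T-box factor of cytotoxic and memory lymphocytes, had 0 counts in all 4 skin libraries, against 7, 16 and 10 counts in SDLN 1 to 3. The SDLN mean was 0.784 ± 0.315 CPM (SD, n = 3). With 3 counts per skin library taken as the floor, Eomes was at least 3.14-fold lower in skin. This bound covers counting error only, and not the wide spread between skin libraries, which had fewer genes with a count than SDLN libraries. It did not reach the low-count filter. In the edgeR fit without that filter, which called 1.60% of 16157 genes, it had an unadjusted p of 0.0111 and an adjusted p of 0.152. Limma-voom without the filter called it lower (adjusted p = 0.0238), and the adjusted p over its alternatives was 0.0154 to 0.553. Every skin library was below every SDLN library for 15.4% of genes with at least 1 count, which is the background for this pattern.

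Il4, which drives type 2 differentiation and IgE switching, had 90, 1, 0 and 0 counts in skin 1 to 4, against 0, 1 and 0 counts in SDLN 1 to 3. The level in skin 1 was 8.28 CPM, and the other 3 skin libraries held 1 count in all. The ratio of pooled levels was 79.0 in skin over SDLN, with a 95% counting interval of 13.8 to 3153, and it rests on skin 1, the library with the conflicting tissue tag. Il5, the growth factor of eosinophils, had 0, 0, 0 and 425 counts in skin 1 to 4, against 0, 1 and 0 counts in SDLN 1 to 3. The level in skin 4 was 30.3 CPM, which exceeded 49.4% of the genes detected in that library. The pooled ratio was 369 in skin over SDLN (95% counting interval 65.8 to 14603) and rests on skin 4, since the other skin libraries had no count. Il13, the cytokine of goblet cells and tissue fibrosis, had 1 count in skin 3 and 1 in SDLN 3 and none elsewhere. Skin 1 thus held Il4 without Il5 or Il13, and skin 4 held Il5 without Il4 or Il13, although the 3 genes share a cluster.

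Il17a, the defining cytokine of type 17 cells, had 71 counts in skin 4 (5.06 CPM) and 0 in the other 6 libraries. Its mean in skin was at least 5.91-fold higher than the SDLN floor of 3 counts per library, and without skin 4 it had no count at all. Il17f, a homologue that pairs with IL-17A, had 0 counts in all 4 skin libraries, against 7, 2 and 1 counts in SDLN 1 to 3. Its SDLN mean of 0.230 CPM lay under the mean skin floor of 0.2493 CPM, so no fold is given. Skin 4 therefore held Il17a without Il17f. Il22, a cytokine that acts on epithelium, had 0 counts in all 7 libraries. For reads that align to Il22 alone, the floor was 0.214 to 0.276 CPM in skin libraries and 0.204 to 0.232 CPM in SDLN libraries. This sets no limit on reads that align to several places. The near-identical copy Iltifb, 79.6 kb from Il22, also had 0 counts in every library. Alignments to several places made up 61.2% to 70.4% of all counts and stood on a line of their own, so a read shared by Il22 and Iltifb may not have been counted to either.

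Across the cytokines Il4, Il5, Il13, Il17a and Il17f the edgeR fit without the low-count filter called 0 (edgeR adjusted p = 0.221 to 0.960). One of them, Il17f, had an unadjusted edgeR p of 0.0274 over all genes fitted. Limma-voom did not call them (adjusted p = 0.106 to 0.998), and DESeq2 gave them no adjusted p.

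Genes seen in 1 library alone were counted for each library. Of 7612 genes with at least 50 counts in skin 1, 80 (1.05%) had at most 1 count in each other skin library. In skin 4 these were 229 of 9229 (2.48%), in skin 2 82 of 7900 (1.04%) and in skin 3 963 of 10022 (9.61%). In SDLN 1 and SDLN 2 there were 0 such genes and in SDLN 3 there were 4 (0.0423%). With at most 1 count in all 6 other libraries, skin 1 had 15 such genes (0.197%), Il4 among them. Skin 4 had 39 (0.423%), among them Il5 with the third highest count and Il17a. Under this stricter rule skin 2 had 16 (0.203%) and skin 3 had 513 (5.12%). The limits of 50 and 1 were chosen after the values were seen.

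**Figure D2:**
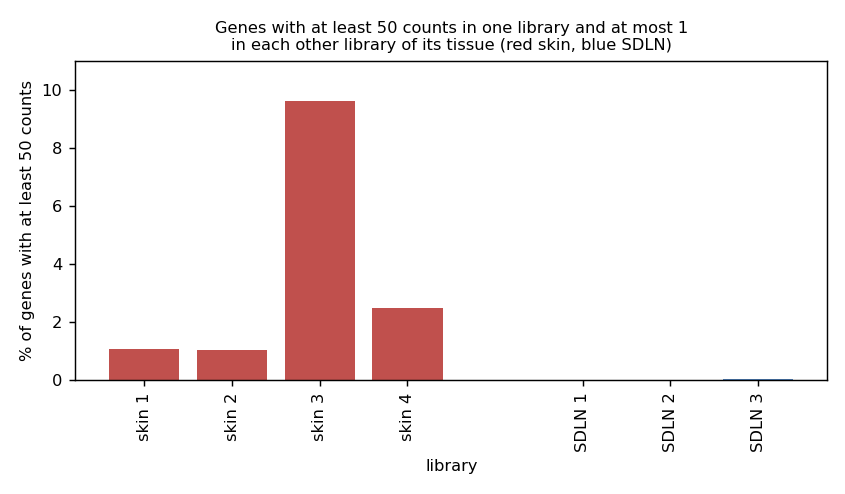
Share (%) of the genes with at least 50 counts in a library that had at most 1 count in each other library of the same tissue, for the 4 skin libraries (red) and 3 SDLN libraries (blue). The share is 1.04% to 9.61% in skin and 0% to 0.0423% in SDLN.

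Levels of different genes were compared per kilobase of annotated exon. In skin the order was Ifng at 23.5 ± 15.3, Tbx21 at 6.31 ± 4.32, Il5 at 4.93 ± 9.86, Il4 at 1.70 ± 3.37 and Il17a at 1.08 ± 2.16 CPM per kb (SD, n = 4). The ranges of neighbours in that order overlapped, with Ifng at 7.76 to 39.5 and Tbx21 at 1.35 to 11.4 CPM per kb. Within each skin library, however, Ifng stood above Tbx21, most narrowly in skin 1 at 13.3 against 11.4 CPM per kb. Each later pair of neighbours changed order between skin libraries. In SDLN the order was Ifng at 3.28 ± 1.29, Tbx21 at 0.435 ± 0.144, Eomes at 0.189 ± 0.0758 and Il17f at 0.114 ± 0.106 CPM per kb (SD, n = 3). The SDLN libraries of Ifng, Tbx21 and Eomes did not overlap each other, while those of Eomes and Il17f did.

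Markers of other cell types were read in every library. Of 6 mast cell and basophil markers, 0 were detected in skin, so their sum was 0 CPM in every skin library, against 1.09 to 2.09 CPM in SDLN, where Cpa3 and Mcpt4 were detected. The defining markers Tpsb2, Fcer1a, Ms4a2 and Mcpt8 were at 0 in all 7 libraries. Of 4 NK cell markers, Klrb1c was detected in skin 4 at 22.6 CPM and in no other skin library, against 0 to 1.85 CPM in SDLN, while Ncr1, Klra4 and Klra8 were at 0 in skin. The 2 CD8 T cell markers summed to 0.0920 to 69.0 CPM in skin and 43.0 to 46.6 CPM in SDLN, and they went different ways. Cd8a was at 46.2 CPM in skin 4 and at 0 in the other skin libraries. Cd8b1 was lower in every skin library, at 0.0920, 13.7, 11.5 and 22.8 CPM in skin 1 to 4. Its SDLN levels were 36.1, 32.9 and 42.3 CPM in SDLN 1 to 3. The macrophage and dendritic cell markers, of which 6 of 8 were detected in skin and 5 in SDLN, summed to 103 to 584 CPM in skin and 13.0 to 20.1 CPM in SDLN. The sum was highest in skin 4, where Lyz2 made up 471 CPM, while its members differed in which library was highest. Csf1r was at 80.7, 0, 27.4 and 0.785 CPM in skin 1 to 4, against 0, 0 and 0.463 CPM in SDLN 1 to 3, and Cd68 was also highest in skin 1, which held Il4. Adgre1 (44.7 CPM) and Itgax (22.0 CPM) were high in skin 4 and nearly or wholly at 0 in every other library, whereas Cd207 and Clec9a were at 0 in all. The part of such cells in the Il4 counts of skin 1 and in the Il5, Il17a and Ifng counts of skin 4 was not tested.

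The 3 B cell markers summed to 0 to 2.99 CPM in skin and 16.7 to 26.6 CPM in SDLN. Of 4 keratinocyte markers, 3 were detected in skin and 1 in SDLN. They summed to 0 to 485 CPM in skin and 2.42 to 2.65 CPM in SDLN. Krt14 was at 335 CPM and Krt5 at 150.4 CPM in skin 3, and Krt1 was at 0 throughout. Krt10 went the other way, at 2.65, 2.42 and 2.55 CPM in SDLN 1 to 3. In skin Krt10 had 1 count, in skin 3, and it was called lower (edgeR adjusted p = 0.0380). The 3 fibroblast markers summed to 2.21 to 501 CPM in skin and 0.232 to 0.882 CPM in SDLN, with skin 3 highest. Skin 3 was also the skin library lowest in Tbx21, in Ifng and in the T cell and Treg marker sums, and the part of the other cells' RNA in this was not tested. Of 5 markers listed for gamma-delta T cells, which are known to make IL-17A in skin, 0 were matched to a gene symbol. Their levels could therefore not be read.

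**Figure D3:**
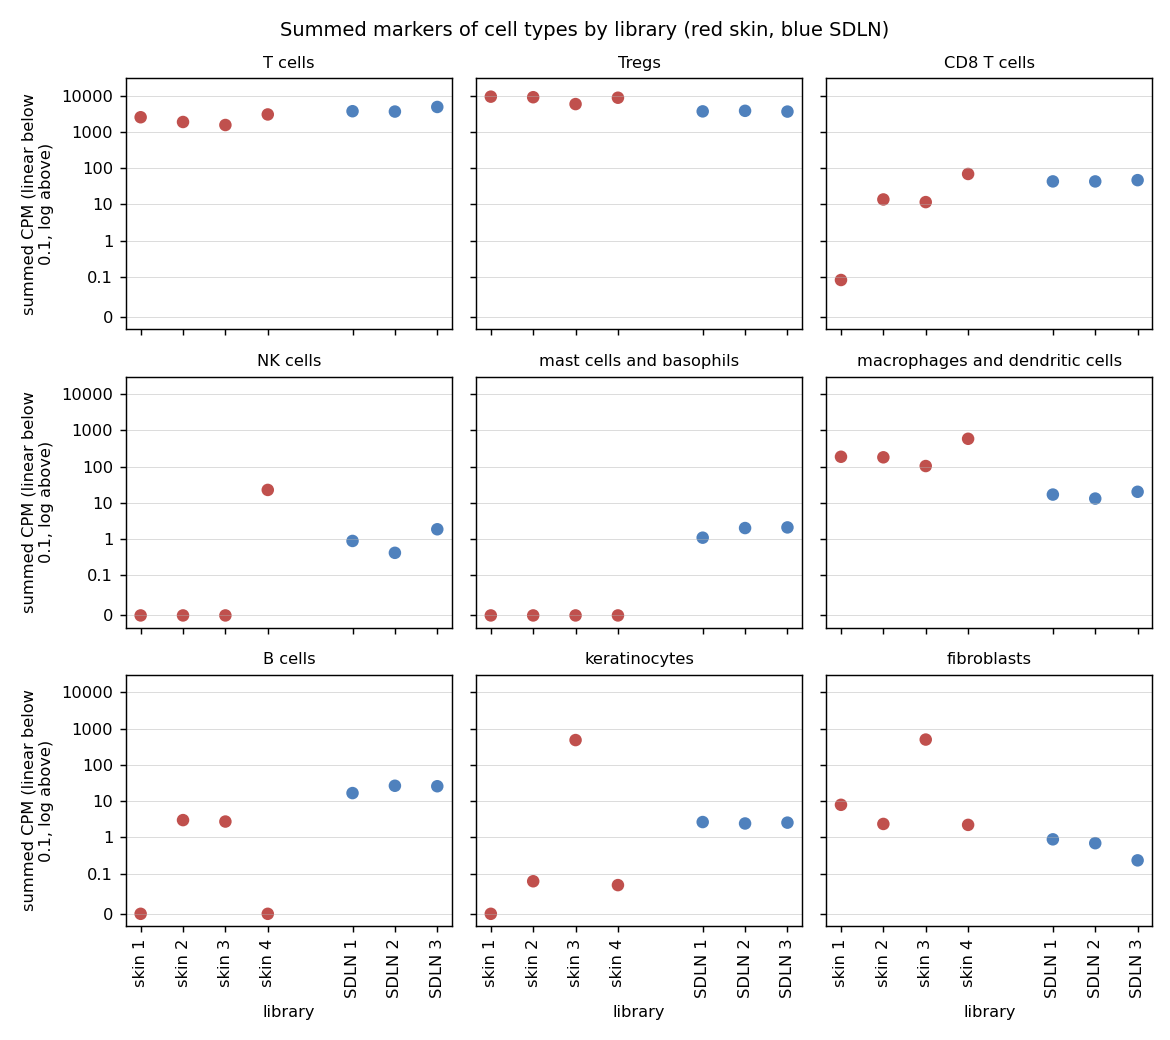
Summed level of the markers of 9 cell types (CPM, on an axis that is linear below 0.1 and logarithmic above) in the 4 skin libraries (red) and 3 SDLN libraries (blue). Keratinocyte and fibroblast markers are highest in skin 3, at 485 and 501 CPM, NK, CD8 and macrophage and dendritic cell markers in skin 4, and mast cell and basophil markers are at 0 in every skin library.

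Most tested genes of the type 1 list were not called, as was so in the other lists below and over all genes tested. Of 13 type 1 regulators and signalling genes 12 were tested. Among these 1 was called higher, 1 lower and 10 neither, with a median log2 fold change of 0.34, against 0.05 over all genes tested. Runx3, which acts with T-bet at Ifng, rose, at 57.5, 257, 112 and 213 CPM in skin 1 to 4, against 24.6, 27.8 and 32.4 CPM in SDLN 1 to 3 (log2 fold change 2.50, SE 0.56, edgeR adjusted p = 0.0386). Stat4, the transducer of interleukin-12, fell, at 31.8, 34.9, 23.8 and 89.6 CPM in skin 1 to 4, against 247, 194 and 214 CPM in SDLN 1 to 3 (log2 fold change -2.28, SE 0.49, edgeR adjusted p = 0.0380). Neither gene's tissues overlapped. Over all genes tested 3.28% were called higher and 3.96% lower, and Runx3 did not pass in 10 and Stat4 in 9 of 18 alternatives.

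In the type 2 list of 14 regulators and signalling genes, 11 were tested, 5 rose and 0 fell, and the median log2 fold change was 1.65. A single gene, Stat6, was lower by the unadjusted p, and it was called lower by DESeq2, by limma-voom, and by edgeR with upper-quartile scaling or library size alone. Stat6 was at 363, 247, 224 and 392 CPM in skin 1 to 4, against 733, 795 and 506 CPM in SDLN 1 to 3. Its log2 fold change was -1.15 (SE 0.29, edgeR adjusted p = 0.0561). Without overlap of the tissues, 6 of the 11 were higher in skin and 3 lower, against 10.1% and 16.5% of all tested genes. The 5 that rose were Il1rl1, the interleukin-33 receptor, Nfil3, a transcription factor, Ccr8, a chemokine receptor, Maf, which activates Il4, and Gata3, the type 2 master factor. Gata3 was at 196, 481, 322 and 301.5 CPM in skin 1 to 4, against 105.5, 108 and 97.7 CPM in SDLN 1 to 3 (log2 fold change 1.65, SE 0.34, edgeR adjusted p = 0.0380). Nfil3 averaged 129 ± 56.6 CPM in skin and 3.45 ± 2.47 CPM in SDLN (edgeR adjusted p = 0.0110). Maf averaged 760 ± 318 CPM in skin and 91.5 ± 34.1 CPM in SDLN (edgeR adjusted p = 0.0116). In skin 1, which held Il4, Gata3 was at its lowest skin level. Il1rl1 was instead highest in skin 1, at 534 CPM against 325 to 427 CPM in the other skin libraries. Nfil3, Ccr8 and Maf, like Gata3, were highest in skin 2.

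The type 17 list held 14 genes, of which 12 were tested. Of these 4 rose and 0 fell, and the median log2 fold change was 1.21. Lower genes also numbered 0 by the unadjusted p of edgeR, by DESeq2 and by limma-voom. The 4 were Rora, a nuclear receptor, Stat3, the transducer of interleukins 6 and 23, Ccr6, the receptor of type 17 cells for Ccl20, and Irf4, a factor of effector differentiation. Stat3 was at 403 to 483 CPM in skin and 151 to 162 CPM in SDLN (log2 fold change 1.48, SE 0.22, edgeR adjusted p = 0.0117). Ccr6 was at 500.2, 603, 727 and 1107 CPM in skin 1 to 4, against 150.1, 160.6 and 255 CPM in SDLN 1 to 3 (log2 fold change 1.96, edgeR adjusted p = 0.0304). Skin 4, which held Il17a, had the highest Ccr6 and Stat3 among the skin libraries, but not the highest Rora or Irf4. Rora was highest in skin 2, at 1249 CPM against 982 CPM in skin 4. Irf4 was highest in skin 1, at 682 CPM against 353 CPM in skin 4. Gata3, Maf, Stat6 and Irf4, and the markers Cd8a, Adgre1, Itgax, Krt5, Krt10, Csf1r and Cd68, were named after their values were seen.

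Of 20 other T cell cytokines and effector molecules, 11 were tested. Among them 3 rose and 1 fell, with a median log2 fold change of 1.68. Il10 rose to 253 to 617 CPM in skin, against 0.746 to 8.34 CPM in SDLN, and Areg, amphiregulin, and Gzmb, the protease granzyme B, were the others that rose. Gzmb was at 1784, 490.1, 828 and 1155 CPM in skin 1 to 4, against 49.8, 58.5 and 120 CPM in SDLN 1 to 3 (edgeR adjusted p = 0.0129). Lta, lymphotoxin alpha, fell, at 57.3, 161, 109 and 45.1 CPM in skin 1 to 4, against 315, 324 and 513 CPM in SDLN 1 to 3 (log2 fold change -2.04, SE 0.47, edgeR adjusted p = 0.0401).

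Of the 15 genes that passed in these lists, Rora and Il1rl1 passed under all 18 alternatives, and all 15 kept their direction. In place of 13 higher calls, removing SDLN 1 gave 4, removing SDLN 2 gave 2 and removing SDLN 3 gave 7, and in place of 2 lower calls 0 were made after removal of SDLN 1, 2 or 3 or of skin 1, and 1 after removal of skin 2, 3 or 4.

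**Figure D4:**
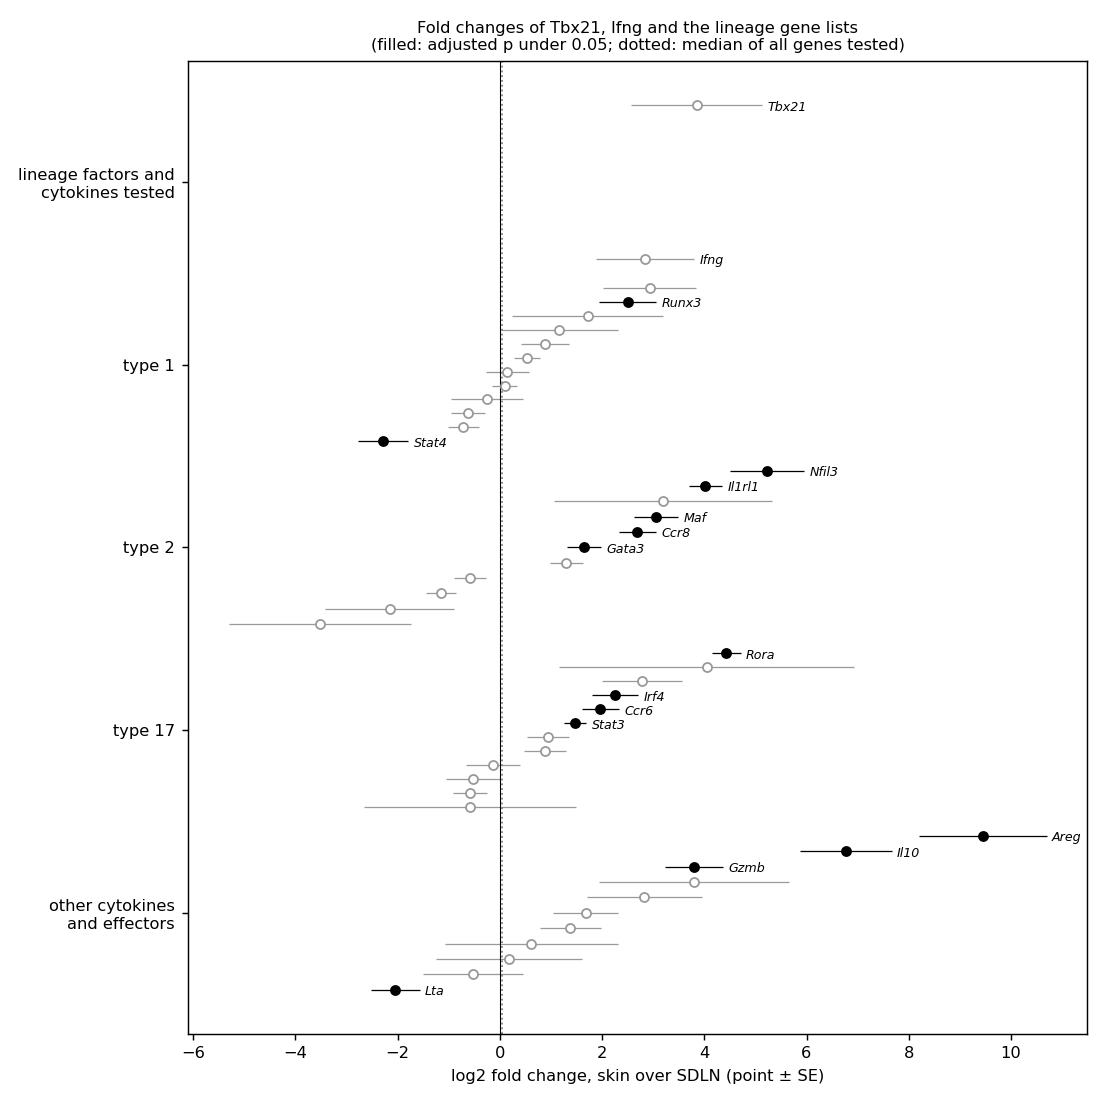
Log2 fold change of skin over SDLN (point and SE) for Tbx21 and Ifng and for the tested genes of the type 1, type 2, type 17 and other cytokine lists, with filled points for edgeR adjusted p under 0.05 and a dotted line at the median of all genes tested, 0.05. Filled points to the right number 1, 5, 4 and 3 in the 4 lists, and Tbx21 at 3.85 and Ifng at 2.84 are unfilled with wide SEs.

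None of the tested genes that flank the cytokine clusters passed the test. Beside Il4, Il13 and Il5, the kinesin gene Kif3a had a log2 fold change of 2.26 (edgeR adjusted p = 0.126). Kif3a was at 101, 47.6, 39.0 and 19.2 CPM in skin 1 to 4, against 13.2, 9.94 and 9.19 CPM in SDLN 1 to 3. Its tissues did not overlap, as for 10.1% of tested genes in this direction. Kif3a was highest in skin 1, which held Il4, and a link between them was not tested. Rad50 had a log2 fold change of 0.18 (edgeR adjusted p = 0.893), the interferon factor Irf1 of 0.09 (adjusted p = 0.915) and the carnitine transporter Slc22a5 of -0.34 (adjusted p = 0.9495). Rad50, which lies between Il13 and Il5, was at 54.9 CPM in skin 4, where Il5 stood at 30.3 CPM, and at 96.0 to 148 CPM in the other skin libraries. Near Il17a and Il17f, the replication gene Mcm3 had a log2 fold change of -1.09 (adjusted p = 0.744) and Paqr8 of -0.02 (adjusted p = 0.998), and Pkhd1 was counted in skin 3 alone. Mdm1, near Il22 and Ifng, had 565 counts in skin 1 and 0 to 18 in the other skin libraries, against 64 to 108 in SDLN (adjusted p = 0.877).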

How the data were processed

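Messenger RNA of 4 skin and 3 SDLN Treg libraries was sequenced. Per the labels' protocols, RNA of sorted, frozen cells was purified on columns and converted to cDNA libraries (Illumina SMARTer Ultra Low Input). The authors deposited raw read counts per gene symbol. The submitters' processing notes name HTSeq 0.6.1, SAMtools 0.1.19.0, Bowtie2 2.1.0.0, TopHat2 2.0.12, CASAVA 1.8.2 and mm10. For the annotation and the strand setting, nothing is given in the sources used here. The 5 summary lines were left out of library sizes; reads outside genes made up 10.0% to 17.1% of all counts.

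Genes were kept by filterByExpr (minimum count 10), scaled by TMM and tested, skin against SDLN, with edgeR 4.0.16 in R 4.3.3 by the quasi-likelihood test with robust fitting, two-sided, Benjamini-Hochberg adjusted p under 0.05. SEs are the log2 fold change over the root of the test statistic. Genes that the filter removed are given by counts and by a fit without it. Other tools were DESeq2 1.42.0 and limma 3.58.1. The closest patterns were sought among tested genes averaging 1 CPM or more, with a prior count of 2. Named genes are the 9 genes, up to 3 called genes per direction and list with the smallest adjusted p, all flanking genes fixed, the most abundant marker per cell type and the 3 closest patterns. The 9 genes and the lists were chosen with earlier results of these data known. One gene of the type 17 list is counted in that list but not reported here.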

Additional observations from a re-analysis of the deposited data

Results flagged for a closer look

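Among the 4 skin libraries, 1 library stood far from the others for 15 of 48 named genes whose values varied in skin. Without Cd8a, Adgre1, Itgax and Krt5, which were chosen after their values were seen, it was 11 of 44. Chance alone flags about 1 in 20 groups, a rate that does not hold for sparse counts, since a gene counted in a single library always stands apart. Over all 14012 genes whose values varied in skin 31.8% stood apart, and among the 11105 tested by edgeR 17.85% did. Of the 6 lineage genes with counts in skin, 4 were among them. Il4 in skin 1 was at 8.28 CPM and next highest at 0.0809 CPM, Il5 in skin 4 was at 30.3 CPM and Il17a in skin 4 at 5.06 CPM, both with 0 in the other skin libraries. Il13 in skin 3 stood apart at 0.0881 CPM by a single count. In skin 4, Stat4 was at 89.6 CPM, Klrb1c at 22.6 CPM, Cd8a at 46.2 CPM, Adgre1 at 44.7 CPM and Itgax at 22.0 CPM. In skin 3, Krt14 was at 335 CPM, Krt5 at 150.4 CPM, Col1a2 at 266 CPM, Paqr8 at 33.5 CPM and Pkhd1 at 4.94 CPM. In skin 1, Mdm1 was at 52.0 CPM.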

How the results depend on the processing

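Of the 9 lineage genes only Tbx21 and Ifng passed the low-count filter, and 0 of these 2 were called. This held with upper-quartile, RLE or library-size scaling, at a mean of at least 1 CPM, with limma-voom, without robust estimation, with the replicate block and at an adjusted p under 0.01. Without the low-count filter edgeR called 0 of 8, while limma-voom called Eomes lower (adjusted p = 0.0238, and 0.0154 with a variance weight per tissue). Genes called higher numbered 2 with DESeq2, 2 with limma-voom and a variance weight per tissue, an alternative chosen after seeing the data, and 0 to 1 with 1 library left out. Over all genes, 373 higher and 451 lower calls became 188 and 70 without the low-count filter, 229 and 82 at a mean of at least 1 CPM, and 72 and 16 at an adjusted p under 0.01. They were 923 higher with DESeq2, 729 lower with limma-voom, and 594 and 987 with the variance weight per tissue. With 1 library left out they ranged from 33 to 582 higher and 9 to 822 lower. In the 4 lists, 13 genes were higher and 2 lower. The lower calls were 0 without the filter, at a mean of at least 1 CPM and at an adjusted p under 0.01, where 4 were higher. With 1 library left out they ranged from 2 to 15 higher and 0 to 1 lower. The cause was not tested. The replicate numbers are not stated to pair the samples. Same-numbered libraries' deviations from their tissue means correlated at 0.0672, -0.00176 and -0.0401 across genes, and not every library correlated best with its own number. With so few libraries per tissue, these correlations cannot decide whether the samples were paired. With the replicate block on 6 libraries, 32 genes were higher and 10 lower, and on 7 libraries 44 and 12, with 2 list genes higher and 0 lower in both. The median log2 fold change of all genes was 0.05, 0.21 at a mean of at least 1 CPM, and -0.62 with limma-voom, -0.62 with the weight per tissue, and -0.55 and -0.54 with the block. Il5 had a positive log2 fold change with all libraries (7.83, without the filter) and a negative one without skin 4 (-1.78) and with the block (-1.45 and -1.49), never past the threshold. Depth limits the result for Il22 and Il13, with at most 1 count in any library, and for Il17f, which reached 3 counts in SDLN 1 alone. For Il22, reads shared with Iltifb may also have gone uncounted at any depth.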
